A study of Homo sapiens with 6 samples.

Results

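Replication-dependent histone genes encode the linker histone H1 and the core histones H2A, H2B, H3 and H4 that package new DNA during S phase. They were taken as every gene of the deposited table whose Ensembl identifier carries a current symbol of the form H1-1 to H1-5, or H2AC, H2BC, H3C or H4C followed by a number, with pseudogenes left out. This gave 68 of 20014 genes, namely 5 H1, 17 H2A, 18 H2B, 13 H3 and 15 H4 genes. They were measured in HaCaT cells, an immortalized human keratinocyte line, given no special treatment. The knockout group (3 libraries) came from cells carrying a lentiviral CRISPR guide against STUB1, an E3 ubiquitin ligase that binds chaperones, and the control group (3 libraries, labelled WT) from cells with a control guide in the same vector. Colonies grown from sorted cells were tested for STUB1 protein by immunoblotting. Whether a group's libraries are separate clones, cultures or preparations is not stated in the labels, and the p-values then reflect the scatter of these libraries alone, part or all of which may be technical.

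Most mRNAs end in a poly(A) tail. Replication-dependent histone mRNAs are the exception in animal cells: they end a few bases after a conserved stem-loop that is bound by the protein SLBP, and they are made in S phase and degraded when replication stops. Some of these genes also give polyadenylated transcripts, by reading past the stem-loop or by splicing to a distant exon, in particular in cells that have left the cycle. The libraries were selected with oligo(dT), so they hold mainly the polyadenylated transcripts of these genes, and the values below do not measure the bulk of histone mRNA.

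The stem-loop was searched by its consensus in the GENCODE 29 transcripts (GRCh38), because its position relative to the transcript end separates the forms that oligo(dT) can and cannot select. It was found in 29 of the 64 members that this release holds. The models of many others stop at the stop codon and cannot show it. Below are 6 examples, 1 for each form of the 16 bases found, written 5' to 3' with the 16 bases in capitals and 5 flanking bases on each side.
H2BC21: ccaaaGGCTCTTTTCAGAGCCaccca
H2BC5: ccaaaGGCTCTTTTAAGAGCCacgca
H2AC11: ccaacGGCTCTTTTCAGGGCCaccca
H3C6: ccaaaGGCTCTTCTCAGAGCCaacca
H4C5: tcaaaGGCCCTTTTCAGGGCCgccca
H4C9: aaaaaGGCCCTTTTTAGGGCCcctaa
The form shown for H2BC21 was the most frequent, in 15 members (4 H2A, 8 H2B and 3 H3), and that of H2BC5 was found in 4 (3 H2B and 1 H3). The 8 H4 members with a match all carried one of the last 2 forms, 5 that of H4C5 and 3 that of H4C9. The forms of H2AC11 and H3C6 were each found in 1 member. In 23 of the 29 members more than 100 bases followed the stem-loop in the longest transcript that holds it, up to 1917 bases in H2BC26. H2BC21 on chromosome 1, at 149884459 to 149886652, has 1 transcript of 2194 bases, of which 1729 follow the stem-loop. H2BC5 on chromosome 6, at 26158146 to 26171349, has a transcript that ends 39 bases after the stem-loop and a longer one of 789 bases in which the stem-loop was not found.

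Levels are given as FPKM, the authors' fragments per unit of transcript length and of sequencing depth, which allows genes to be compared per length. Most members were near the detection limit. Of the 68 members, 6 were listed at 0 in every library, 27 lay above 0 but under a mean of 0.3 FPKM over the 6 libraries, 24 between 0.3 and 1 FPKM and 10 between 1 and 10 FPKM, and 1, H2BC12, exceeded 10 FPKM. The median member stood at 0.321 FPKM, where the median of all genes in the table was 2.28 FPKM. Low values moved in steps that imply 45650000 to 52500000 fragments per library, so that 1 fragment on a 500-base transcript is worth 0.0381 to 0.0438 FPKM and 0.3 FPKM corresponds to 6.85 to 7.88 fragments. Counting error is therefore large for the members under 1 FPKM.

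All families were detected, but unevenly. H2B genes carried 62.5% of the members' summed FPKM, H2A 18.6%, H1 8.85%, H4 5.74% and H3 4.35%. H2BC12 alone made up 45.6%. The highest H3 member reached a mean of 0.787 FPKM and the highest H4 member 0.893 FPKM, so no H3 or H4 gene reached the mean of 1 FPKM required for testing. The 11 tested members were 1 H1, 3 H2A and 7 H2B genes, 8 of them on chromosome 6.

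A polyadenylation signal (AATAAA or ATTAAA, starting 10 to 40 bases before the end of an annotated transcript) was found in 21 of 64 members, and 7 of these were tested, against 4 of the 43 members without one. The median level was 0.705 FPKM with and 0.311 FPKM without such a signal. This is a description across genes, since an annotated end can be missing and it is not known which transcript models the authors divided by. H2BC12 and H1-2, the highest members, are annotated in GENCODE 29 only as coding sequences, of 381 and 642 bases.

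**Figure D1:**
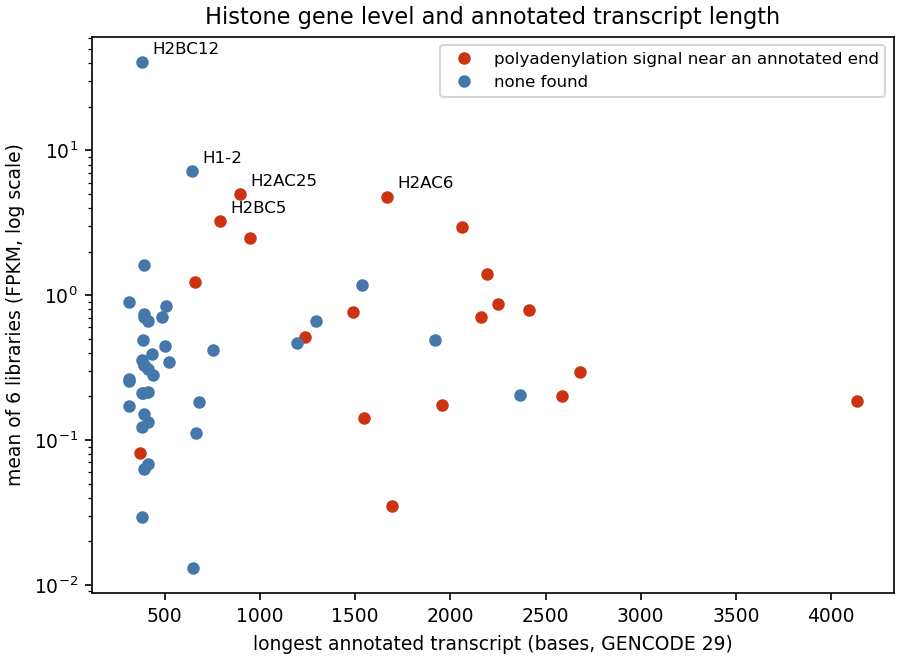
Mean FPKM over the 6 libraries (vertical, log scale) of the members above 0 that GENCODE 29 holds, against their longest annotated transcript in bases (horizontal), coloured by whether a polyadenylation signal was found near an annotated end. H2BC12, at 381 annotated bases, stands above all other members, and members under 1 FPKM are found at both short and long annotated lengths.

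STUB1 mRNA averaged 23.2 ± 1.55 FPKM in knockout and 44.1 ± 7.67 FPKM in control libraries (SD, n = 3 each). The knockout libraries ran from 21.6 to 24.7 FPKM and the controls from 37.8 to 52.7 FPKM, without overlap (-0.89 on the log2 scale, limma, adjusted p = 0.00125). Control 3 stood apart from the other libraries: its values relative to the mean of the 6 libraries fell by 0.104 log2 units per doubling of exonic length, where the other slopes ran from -0.00941 to 0.0349. Such slopes sum to 0 over the libraries, so the others partly mirror it. Because 43 members have under 1000 annotated exonic bases, this bears on them directly. Control 3 was the highest control for 8 of the 11 tested members. Among all tested genes the share was 42.1%, and among the 240 tested genes under 1000 exonic bases 65.4%. For the 62 members above 0, most of them untested, it was the highest control in 41 (66.1%), beside 37.3% of all genes above 0. GC content ran with the groups: slopes per 10% GC were 0.0118, 0.135 and 0.0383 in the knockout libraries and -0.100, -0.0369 and -0.0478 in the controls, without overlap, so a GC trend and the genotype cannot be told apart in the uncorrected values. Calls that changed without control 3 or after a correction of each library for GC content and length are therefore given beside the results. Of the keratinocyte markers, TP63 (62.1 ± 3.53 FPKM in the knockout and 61.7 ± 6.76 FPKM in the control; SD, n = 3 each) and KRT5 were present, while KRT14 was at 0.213 and 0.26 FPKM. Fibroblast markers summed to between 0.447 and 0.562 FPKM in knockout and between 0.448 and 0.535 FPKM in control libraries, with 1 of 8 at 0 in every library. The sums were 6.47 to 7.66 and 6.77 to 7.4 for 6 melanocyte markers (1 at 0, most of it PMEL) and 22.8 to 25.6 and 21.5 to 22.7 for 8 leukocyte markers (2 at 0, most of it CD68); none of the tested ones passed.

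Of the tested members, 3 of 7 H2B genes and 1 of 3 H2A genes were higher in the knockout. H2BC12, H2AC6, H2BC5 and H2BC21 rose, by 29.5%, 37.8%, 76.6% and 46.8% of the control mean, no tested member fell, and 7 of 11 did not pass (limma, Benjamini-Hochberg adjusted p of at most 0.05 over 11262 genes). The share called was 36.4% of the tested members, beside 22.9% of all tested genes, of which 9.58% were higher and 13.3% lower. The median log2 fold change was 0.31 over the 11 tested members and -0.01 over all tested genes. It was 0.22 after the GC and length correction and 0.39 without control 3. Over the 35 members with a mean of at least 0.3 FPKM it was 0.11, and over the 62 members above 0 it was 0.041. With 1 library left out, between 1 (without knockout 2) and 8 (without control 3) members passed. In those fits 1030 and 4521 of the 11262 tested genes passed. Without knockout 1, knockout 3 or control 1, 2 members passed, beside 1422, 1192 and 1500 genes. In such bulk samples, more cells with a transcript and more RNA per cell cannot be told apart. In an exact two-sided permutation test, 3 against 3 libraries cannot give a p under 0.1.

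H2BC5, an H2B gene of the large chromosome 6 cluster, had the largest change among the 11 tested members. It measured 4.29, 3.83 and 4.33 FPKM in the knockout libraries and 2.08, 2.38 and 2.58 FPKM in the controls. Every knockout library was above every control library. On the log2(FPKM + 1) scale it differed by 0.62 (SE 0.0816; limma, adjusted p = 0.00127), and it passed under every alternative run, with log2 values from 0.56 to 0.80.

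H2AC6 encodes an H2A protein and lies next to H2BC4, at 26124145 to 26139116 on chromosome 6. It stood at 5.71, 5.61 and 5.35 FPKM in the knockout and 3.94, 3.58 and 4.58 FPKM in the control. The groups did not overlap, and control 3 was again the highest control. The difference on the log2 scale was 0.39 (SE 0.0869; limma, adjusted p = 0.0142), and 0.62 after the GC and length correction (adjusted p = 0.000372). Leaving out knockout 1 (adjusted p = 0.0586) or knockout 2 (0.0702) ended the call.

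H2BC12, an H2B gene at 27146418 to 27146798 on chromosome 6, was the most abundant member. It measured 42.6, 50.5 and 45.02 FPKM in the knockout and 32.3, 35.8 and 38.6 FPKM in the control. The groups did not overlap, with a log2 fold change of 0.36 (SE 0.092; limma, adjusted p = 0.0222). This call depends on how library trends are handled: after the GC and length correction the log2 value was 0.12 (adjusted p = 0.146), whereas without control 3 it was 0.42 (adjusted p = 0.000249). It was also lost without knockout 2 (0.101), knockout 3 (0.0718) or control 1 (0.0822). The correction used the coding length of 381 bases, and the length of the polyadenylated transcript is not known here.

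H2BC21, an H2B gene of the chromosome 1 cluster, measured 1.74, 1.68 and 1.62 FPKM in the knockout and 1.18, 0.802 and 1.45 FPKM in the control. The knockout libraries lay close together above a wide control group. The log2 fold change of 0.33 (SE 0.104) passed narrowly (limma, Benjamini-Hochberg adjusted p = 0.0473). The call was lost without any 1 library other than control 3 (adjusted p between 0.0846 and 0.16), with a pseudocount of 0.1 (0.0559), without a filter (0.0912) and as TPM (0.0508), and it was kept after the GC and length correction (log2 value 0.45, adjusted p = 0.00549). A pseudocount of 0.1 gave a log2 value of 0.55, since the pseudocount of 1 understates changes at this level.

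**Figure D2:**
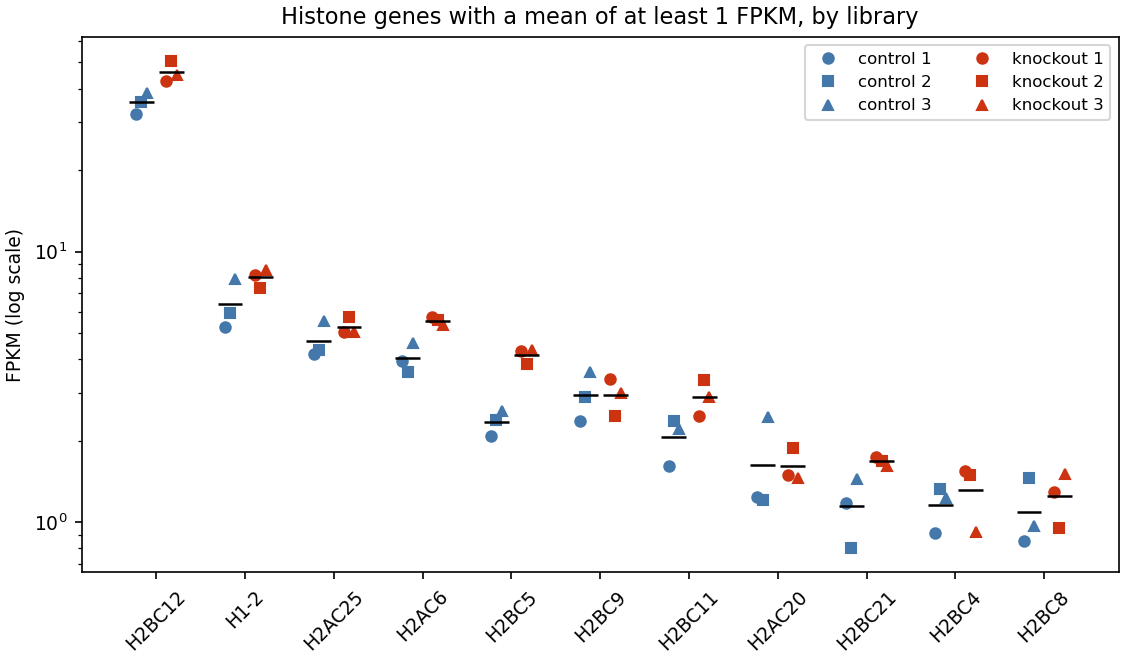
FPKM (vertical, log scale) of the 11 tested members in each library, controls in blue and knockouts in red, with the marker giving the replicate number and the bar the group mean. The groups are separate for 5 members, beside 20.4% of all tested genes with the knockout higher: H2BC12, H2AC6, H2BC5, H2BC21 and H2BC11 and overlap for the other 6 genes.

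Among the 7 tested members that did not pass, H2BC11 and H1-2 came nearest. H2BC11, an H2B gene of the same small cluster as H2BC12, measured 2.46, 3.34 and 2.9 FPKM in the knockout and 1.61, 2.37 and 2.21 FPKM in the control, without overlap. Its log2 value was 0.35 (SE 0.115; limma, adjusted p = 0.0556), and it passed with the replicate block (adjusted p = 0.00914), after the GC and length correction (0.0246) and without control 2 (0.0297) or control 3 (0.00806). H1-2, the one tested linker histone gene, measured 8.19, 7.35 and 8.55 FPKM in the knockout and 5.27, 5.93 and 7.92 FPKM in the control. Control 3 fell within the knockout range, and the log2 value of 0.31 (SE 0.125; limma, adjusted p = 0.106) became 0.45 without that library (adjusted p = 0.000292). With the replicate block, which pairs libraries of the same number, H1-2 also passed (adjusted p = 0.0445), so that 6 members were called, beside 27.1% of all tested genes. After the GC and length correction the H1-2 log2 value was 0.22 (limma, adjusted p = 0.194). With both the block and the correction H1-2 did not pass (0.0897). That fit called 4 members, beside 2834 of 11177 tested genes.

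The other 5 tested members overlapped between groups. H2AC25, on the long arm of chromosome 1 apart from the main cluster, measured 5.28 ± 0.402 FPKM in the knockout and 4.68 ± 0.746 FPKM in the control. H2BC9 measured 2.95 ± 0.454 and 2.96 ± 0.617 FPKM, with a log2 fold change of 0.00. H2AC20, a neighbour of H2BC21 on the opposite strand, measured 1.61 ± 0.237 and 1.63 ± 0.708 FPKM (SD, n = 3 each). Its 3 control values were 1.24, 1.2 and 2.45 FPKM, so control 3 was above all knockout libraries and controls 1 and 2 below them. H2BC4 measured 1.32 ± 0.349 and 1.15 ± 0.218 FPKM, and H2BC8 1.25 ± 0.281 and 1.09 ± 0.318 FPKM. Their log2 fold changes lay between 0.00 and 0.15, with adjusted p from 0.303 to 0.995 (limma, Benjamini-Hochberg). Without control 3, H2AC25 (adjusted p = 0.0127) and H2AC20 (0.0307) passed as well, which made 8 of 11 tested members higher, beside 18.7% of all tested genes (40.1% in either direction).

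**Figure D3:**
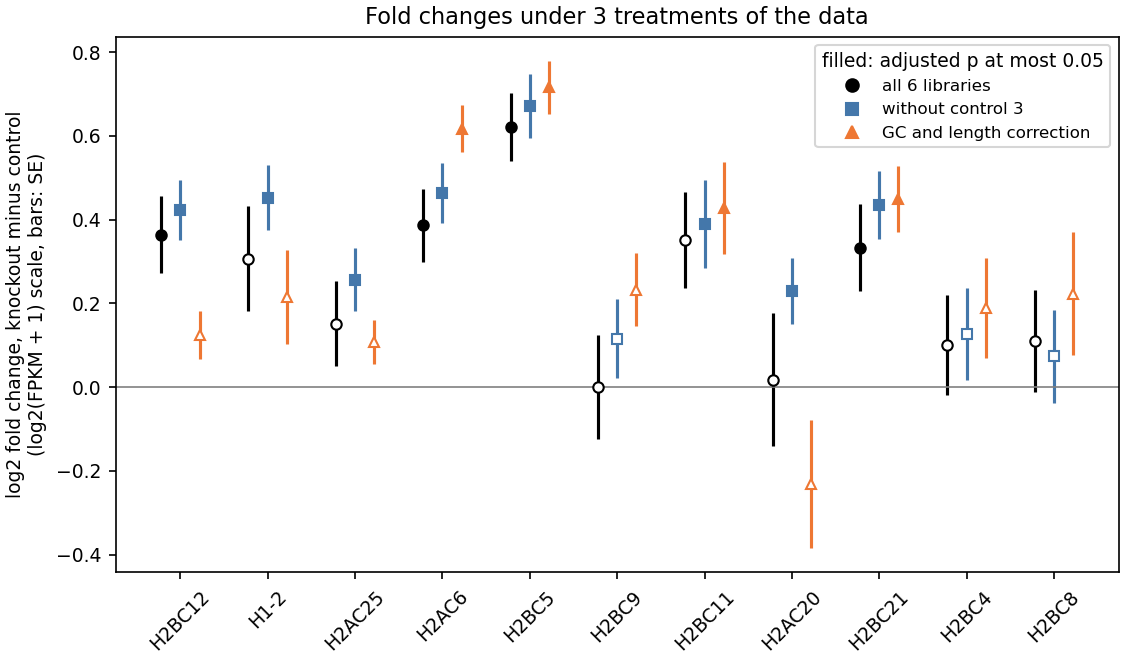
Log2 fold change of the 11 tested members on the log2(FPKM + 1) scale, with SE bars, fitted with all 6 libraries, without control 3 and after the GC and length correction; filled markers have an adjusted p of at most 0.05. H2BC5, H2AC6 and H2BC21 are filled under all 3, H2BC12 drops to 0.12 under the correction, and H2AC20 changes sign under it.

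The members under 1 FPKM were less regular. Over the 62 members above 0, the knockout mean was higher for 37 and lower for 25. The groups were separate with the knockout higher for 9 (14.5%), beside 16.8% of all genes above 0, and with the knockout lower for 1 (1.61%), beside 20.6%. The 57 untested members held 19.7% of the summed level, 18.6 ± 1.88 FPKM in the knockout and 16.7 ± 4.93 FPKM in the control (SD, n = 3 each).

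H4C12 encodes H4 and had the largest ratio among the separated genes with a control level above 0. It measured 0.817, 1.15 and 2.1 FPKM in the knockout and 0.565, 0.446 and 0.279 FPKM in the control, on an annotated coding length of 312 bases. H2AC14 measured 0.797, 0.667 and 0.517 FPKM against 0.276, 0.282 and 0.408 FPKM, and H2BC26, an H2B gene on chromosome 1, 0.282, 0.25 and 0.333 FPKM against 0.127, 0.104 and 0.142 FPKM. H2AC19, 1 of a pair of copies with H2AC18, was listed at 0 in the controls and at 0.079, 0.04 and 0.071 FPKM in the knockout, the worth of 1 or a few fragments. H2AC4 was the gene with the lower knockout, at 0.12, 0.161 and 0.036 FPKM against 0.166, 0.218 and 0.205 FPKM. When genes with a mean of 0.3 FPKM or more were tested, 6 of 35 members rose, H2AC14 and H4C12 joining the 4 above, beside 9.85% of 12440 genes that were higher. Without any filter, 6 of 62 rose (H2BC5, H2BC12, H2AC6, H2AC14, H2BC26 and H2AC19), beside 6.27% of 16782 genes that were higher, and with a pseudocount of 0.1 as well 7 of 62 rose, beside 6.21% of all genes that were higher (9.17% lower, 15.4% in either direction). None was lower in any of these fits (limma, Benjamini-Hochberg). The low genes named here were chosen after their values were seen.

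**Figure D4:**
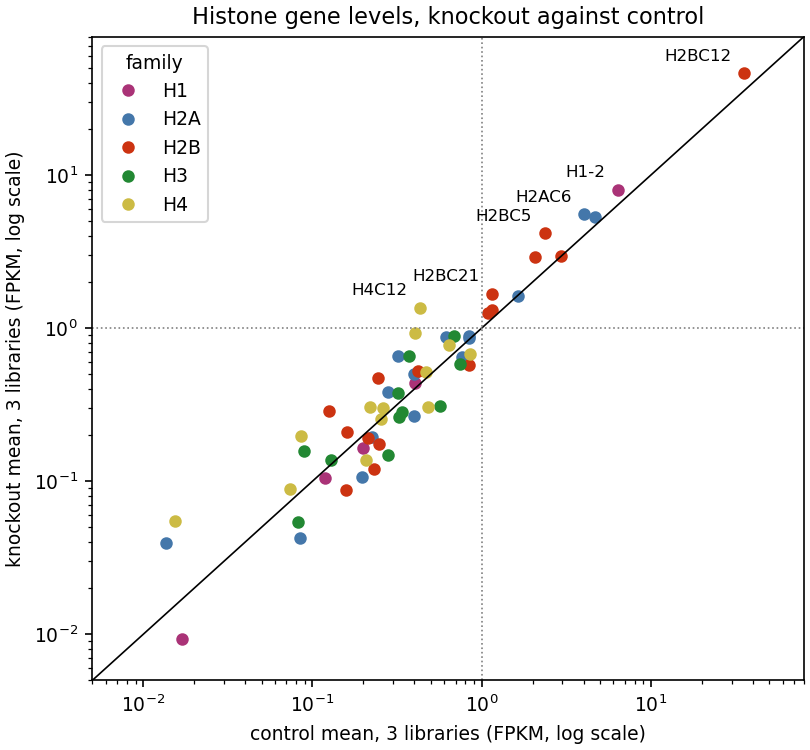
Mean FPKM in the 3 knockout libraries against the mean in the 3 control libraries, log scales, for the members above 0 in both groups, coloured by family; the solid line marks equality and the dotted lines 1 FPKM. Of the members over 1 FPKM, H2BC9 and H2AC20 lie on the line and the others above it, and those under 1 FPKM scatter on both sides.

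Sums over the families were led by H2B. The sum over all 68 members was 94.6, 105.5 and 98.2 FPKM in the knockout and 68.7, 77.3 and 93.4 FPKM in the control, a ratio of means of 1.25. The ratio was 1.36 without control 3 and 1.12 after the GC and length correction. Control 3 lay just under the lowest knockout library, and controls 1 and 2 well below it. The H2B sum went from 49.0 ± 6.07 to 62.9 ± 3.67 FPKM, a ratio of 1.28, and the groups did not overlap. Over the 6 libraries H2BC12 held 40.8 of the mean H2B sum of 56.0 FPKM. The H2BC12 call was lost after the GC and length correction. The H3 sum was 3.93 ± 1.19 FPKM in the control and 3.86 ± 0.0565 FPKM in the knockout, a ratio of 0.981. The H4 sum was 4.39 ± 1.08 FPKM in the control and 5.9 ± 1.31 FPKM in the knockout, a ratio of 1.34 with overlapping groups (SD, n = 3 each). The H1 and H2A sums had ratios of 1.23 and 1.17, also with overlapping groups. Without H2BC12 the ratio over the remaining 67 members was 1.21, and the groups overlapped. Control 3 stood at 54.75 FPKM there, and the knockout libraries at 51.95, 54.93 and 53.22 FPKM.

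Promoters are shown for 3 of the members that rose, because members of a family share elements there. The 250 bases before the RefSeq start (GRCh38.p14) are written 5' to 3' on the gene's strand, with matches to 3 motifs in capitals. The motifs were searched on both strands, so the capitals can also be a reverse complement, and adjoining capitals can be overlapping matches. CCAAT is the box bound by the factor NF-Y. The core promoter element searched was TATAAA, the TATA box. The octamer searched was ATTTGCAT, which POU2F1 binds in H2B promoters. The windows lie at chr6:27146856-27147105 on the minus strand for H2BC12, and on the plus strand at chr6:26123922-26124171 for H2AC6 and chr6:26157871-26158120 for H2BC5.
H2BC12: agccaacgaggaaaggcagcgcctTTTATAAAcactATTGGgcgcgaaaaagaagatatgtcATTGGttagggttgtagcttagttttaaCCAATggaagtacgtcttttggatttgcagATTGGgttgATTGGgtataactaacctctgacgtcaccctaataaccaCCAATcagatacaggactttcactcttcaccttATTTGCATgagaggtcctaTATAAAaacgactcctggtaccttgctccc
H2AC6: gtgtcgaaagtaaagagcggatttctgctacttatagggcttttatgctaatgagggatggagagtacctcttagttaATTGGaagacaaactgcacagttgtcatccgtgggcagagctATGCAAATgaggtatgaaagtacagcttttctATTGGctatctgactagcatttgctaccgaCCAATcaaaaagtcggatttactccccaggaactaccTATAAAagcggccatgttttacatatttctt
H2BC5: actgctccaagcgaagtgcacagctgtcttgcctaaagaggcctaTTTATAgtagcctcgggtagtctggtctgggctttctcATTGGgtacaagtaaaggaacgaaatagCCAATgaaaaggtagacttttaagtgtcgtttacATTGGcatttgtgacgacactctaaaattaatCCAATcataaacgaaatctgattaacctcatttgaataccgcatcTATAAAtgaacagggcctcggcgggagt
RefSeq windows of 300 bases (250 before to 50 after the start) were matched for 63 members. CCAAT was found in 53 of 63 (84.1%), beside 35.6% of 27305 windows of the same length, with matches in every H1, H2A, H2B and H3 window and in 3 of 13 H4 windows. TATAAA was found in 43 (68.3%), beside 12.1%. The octamer was found in 11 of 16 H2A and 14 of 18 H2B windows and in none of the H1, H3 or H4 windows, beside 1.82% of all windows. Some H2A and H2B windows are largely the same DNA on opposite strands, such as those of H2AC6 and H2BC4, H2AC11 and H2BC11, or H2AC20 and H2BC21. There the same match counts for both genes, so the H2A and H2B counts are not independent. Of the members that rose, H2BC12, H2AC6 and H2BC21 hold all 3 elements, while no octamer letters were found in the H2BC5 window. The 3 elements do not set the risen members apart. H2BC4, H2BC8, H2BC11 and H2AC20, which did not pass, hold them too, as do H2AC1 and H2BC1, listed at 0 in every library.

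Medians of other genes around the tested members lay near 0, on either side. They ran from -0.075 around H2AC25 (36 of 56 tested genes below 0) to 0.056 around H2BC11 (35 of 96 below 0). Around H2BC12 the median was 0.053, with 36 of 97 below 0, 10 higher and 9 lower. Non-member genes within 5 Mb of H2BC5 (59 tested) had a median log2 fold change of 0.01, with 6 higher and 6 lower, and those within 5 Mb of H2BC21 (105 tested) had a median of 0.00, with 11 higher and 11 lower. Of 8 other genes lying between members of the largest cluster (31 members from 25726132 to 26285638 on chromosome 6), 2 were tested, TRIM38 among them. Neither passed in the main fit (limma, Benjamini-Hochberg), and 1 passed as higher after the GC and length correction. In GENCODE 29 no tested member shares exonic bases with another gene. Several low members do, such as H2AC15 with H2BC15 on the opposite strand (393 bases), and with no strand setting stated their reads cannot be told apart. Near-identical copies among the members may share reads as well.

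Replication-independent histone genes, whose mRNAs are polyadenylated throughout the cycle, moved in both directions. Of 11 tested, 1 rose, 2 fell and 8 did not pass, with a median log2 value of 0.08. That is 27.3% called, beside 22.9% of all tested genes. H3-3B, which encodes the H3.3 variant, fell from 129.9 ± 18.1 to 84.0 ± 2.004 FPKM (-0.61, adjusted p = 0.00311), while H3-3A, which encodes the same protein, measured 63.8 ± 0.889 against 67.9 ± 9.55 FPKM (adjusted p = 0.573). MACROH2A2 fell from 4.07 ± 0.128 to 1.96 ± 0.182 FPKM (-0.78, adjusted p = 0.000266). H3-3B lies on chromosome 17, where 59 of 93 other tested genes within 5 Mb fell and the median was -0.37; its share in that regional shift cannot be told apart. H2AZ1 was at 83.6% of control (adjusted p = 0.136), and H2AX, an H2A variant with both kinds of mRNA end, at 121% (adjusted p = 0.0632). H2AX passed with the replicate block (0.0427), after the GC and length correction (0.018) and without control 3 (0.000131). Correcting for GC and length gave 4 higher and 2 lower, and the same counts held without control 3.

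Genes that process or degrade histone mRNA gave 1 higher, 3 lower and 21 not passed of 25 tested (beside 22.9% called of all tested genes). SLBP, the stem-loop binding protein, measured 39.6 ± 2.28 FPKM in the knockout and 48.6 ± 6.77 FPKM in the control (adjusted p = 0.0724, limma). It passed as lower with the replicate block (0.0328), after the GC and length correction (0.0425), as TPM (0.0396) and without control 2 (0.0436) or control 3 (0.0337). CPSF1, a subunit of the cleavage complex, rose to 136% of control, and CSTF2, which acts with it, fell to 78.6% (on the X chromosome, where 12 of 26 genes within 5 Mb fell), a call lost after the GC and length correction (adjusted p = 0.067). MIF4GD, an SLBP partner in translation, fell to 66.8% and CASP8AP2 (FLASH), needed for histone pre-mRNA cleavage, to 68.7%. Both lie where most genes were lower, MIF4GD on chromosome 17 (59 of 92 within 5 Mb fell) and CASP8AP2 on chromosome 6 (16 of 17 fell, median -0.59). CASP8AP2 did not pass without a filter (limma, adjusted p = 0.0654). With the replicate block the list had 3 higher and 5 lower, and without control 3 it had 2 higher and 7 lower.

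Histone gene transcription factors gave 1 higher, 2 lower (CASP8AP2, also in the list above, and COIL) and 12 not passed of 15. NPAT, the cyclin E-CDK2 substrate that activates histone promoters, measured 3.41 ± 0.215 and 3.1 ± 0.256 FPKM (adjusted p = 0.336, limma), and passed as higher after the GC and length correction (log2 value 0.25, adjusted p = 0.00913). E2F1 rose to 125% of control, but did not pass as TPM (limma, adjusted p = 0.0618) or without a filter (0.0626). COIL, the Cajal body protein coilin, fell to 71.7%, on a stretch of chromosome 17 where 28 of 42 genes fell. Correcting for GC and length gave 3 higher and 2 lower, and the replicate block 2 and 2. Histone chaperones had no higher, 6 lower and 18 not passed of 24. ASF1A, which hands H3-H4 to assembly factors, fell to 59.8%, RBBP7 to 71.7%, NAP1L1, an H2A-H2B chaperone, to 73.9% and NPM1 to 79.9% of control, of which NPM1 did not pass with the replicate block (adjusted p = 0.0523). After the GC and length correction neither NAP1L1 (0.0654) nor NPM1 (0.0666) passed, and NPM1 did not pass without a filter (limma, adjusted p = 0.0637). ASF1A and RBBP7 lie among genes that were mostly lower (15 of 19 and 16 of 28 within 5 Mb fell). The chaperones had 3 higher and 8 lower without control 3, 2 and 6 with the replicate block and 2 and 4 after the GC and length correction. Of all tested genes, 40.1%, 27.1% and 28.2% were called in these fits.

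S phase genes showed no common direction. Of 43 tested, 2 rose, 5 fell and 36 did not pass, with a median log2 value of -0.01 (16.3% called, beside 22.9% of all tested genes). RRM2, a subunit of ribonucleotide reductase, rose from 51.6 ± 0.534 to 62.9 ± 1.78 FPKM (limma, adjusted p = 0.0168), and did not pass as TPM (0.0652). PCNA, the replication clamp, measured 247 ± 13.4 against 300.3 ± 47.8 FPKM (adjusted p = 0.112; 0.0449 without control 2). CDC6, which loads the replicative helicase, fell to 81.4%, TIPIN to 77.5% and RFC3, a clamp loader subunit, to 80.8% of control. After the GC and length correction RFC3 was at -0.059 on the log2 scale (adjusted p = 0.465), and TIPIN at -0.14, which did not pass with the block as well (0.0749). CDC6 and BIRC5 lie on stretches of chromosome 17 where 65 of 136 and 93 of 136 other genes within 5 Mb fell. Mitotic genes gave no higher, 2 lower (BIRC5 at 71.9% and AURKA at 85.2% of control) and 18 not passed of 20 (limma, Benjamini-Hochberg), and AURKA did not pass after the GC and length correction (adjusted p = 0.119). Correcting for GC and length gave 6 higher and 4 lower S phase genes and 6 higher and 2 lower mitotic genes, without control 3 they were 6 and 6, and 3 and 4, and with the replicate block 5 and 5, and 2 and 2. Leaving out 1 knockout library or control 1 ended calls for RRM2, CDC6, RFC3, TIPIN, AURKA, E2F1, CASP8AP2, CPSF1, CSTF2, NAP1L1 and NPM1, and leaving out control 2 also ended those of E2F1 and AURKA. The calls of MIF4GD, COIL, ASF1A, RBBP7 and BIRC5 held in every fit with 1 library left out.

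**Figure D5:**
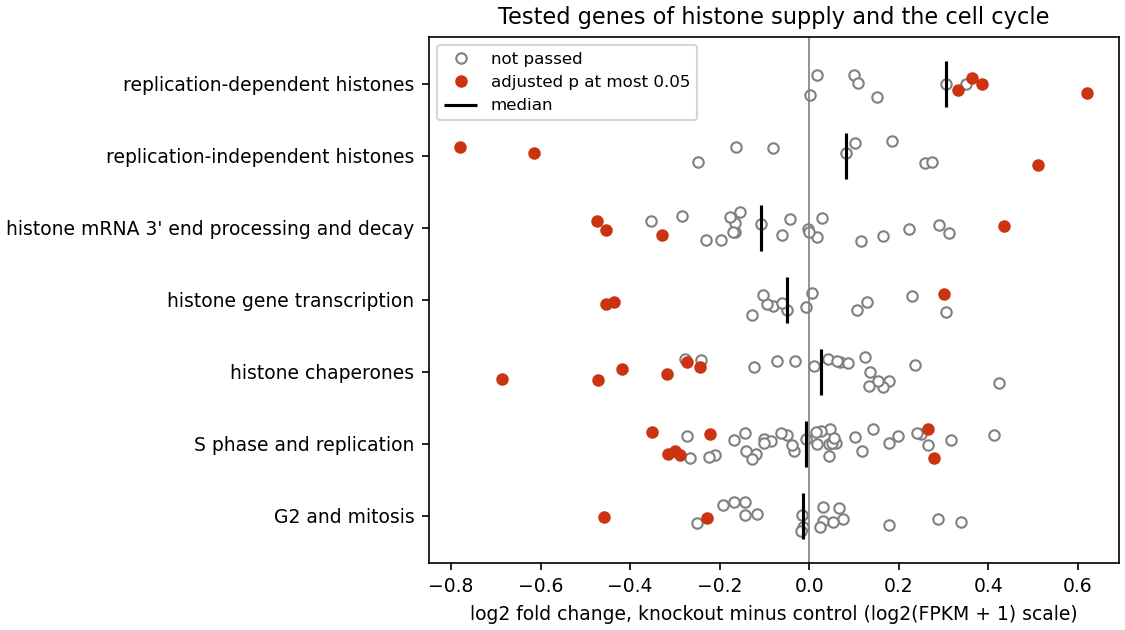
Log2 fold change of every tested gene (points, jittered vertically) in 7 groups, filled red where the adjusted p is at most 0.05, with the median of each group as a bar. The replication-dependent histone genes have a median of 0.31 and no filled point below 0, while each of the other 6 groups has a median between -0.11 and 0.08.

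Markers of keratinocyte differentiation were lower or did not pass. Of 8 tested, 4 fell (SPRR2A, SPRR1A, OVOL1 and KRT10) and 4 did not pass, beside 13.3% of all tested genes that were lower. SPRR1A fell to 30.3%, SPRR2A to 35.6%, OVOL1 to 69.2% and KRT10 to 66.6% of control, and KRT10 lies on a stretch of chromosome 17 where 64 of 132 other genes fell. Without control 3 the list had 1 higher (KLF4) and 5 lower, and after the GC and length correction 5 lower. Among all tested genes 21.5% and 14.7% were lower in the same fits. KRT10 and OVOL1 did not pass without knockout 1 or knockout 3, nor KRT10 without knockout 2. The basal genes KRT5, COL17A1 and LAMB3 rose to 177%, 163% and 129% of control (limma, Benjamini-Hochberg adjusted p of at most 0.0179), and the other 4 tested keratinocyte markers did not pass. Of these tested markers 42.9% were called, beside 22.9% of all tested genes. The count of higher markers was 4 with the replicate block and 5 after the GC and length correction or without control 3. Among all tested genes 12.1%, 13.5% and 18.7% were higher in these fits. LAMB3 did not pass without any 1 knockout library or control 1. Whether the histone transcripts moved with the state or the cycle of the cells was not tested.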

How the data were processed

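RNA was selected with oligo(dT) beads and made into libraries with a TruSeq kit, per the labels' protocols. The deposited table holds 1 FPKM value per gene and library, made by the authors. Per the submitters' processing notes, the build was GRCh38.p13 and the tools included Cufflinks, edgeR 3.6.3, featureCounts 1.6.3, HISAT2 2.0.5 and Trimmomatic 0.36, with no roles named. The sources used here give neither an annotation release nor a strand setting.

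From these values, log2(FPKM + 1) was fitted on genotype with limma 3.58.1 (R 4.3.3, trend) over the 11262 genes with a mean of at least 1 FPKM, with Benjamini-Hochberg adjustment over all of them and a threshold of 0.05. The fit was tested on simulated data with independent noise for each gene and library. That simulation held no GC or length trend, so it cannot show how the fit handles the trends of these libraries. Intervals and steps in fragments cover counting error only. Gene models and coordinates came from GENCODE 29 (GRCh38) and promoters from RefSeq (GRCh38.p14). The GC and length correction removed a spline of each (5 degrees of freedom) from every library. The window count around a gene takes 5 Mb on each side.

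Libraries share replicate numbers across groups. Deviations from the group means correlated at 0.375, 0.150 and 0.188 between same-numbered libraries, all over 0.1. GC and length trends were not removed before this check, and the labels state no pairing, so it cannot establish one. The main fit is therefore unpaired. The block by number is an alternative, given where it changes the call of a named gene or a list's counts.

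Named were STUB1, every member that passed, the 10 members with the highest mean, the tested members with the largest and smallest change, up to 4 passing genes of each other list by p, and a few fixed genes (SLBP, NPAT, CASP8AP2, H3-3A, H3-3B, H2AZ1, H2AX, PCNA and RRM2). H2BC8 and the low members were added after their values were seen. The members and the gene lists were chosen with earlier results of these data known. The values of 1 gene of the other lists are not reported here.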

Additional observations from a re-analysis of the deposited data

How the results depend on the processing

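Of 11262 tested genes 2579 changed (1079 higher, 1500 lower). The count was 6437 with array weights, whose estimation stopped before it converged, and 1030 to 4521 with 1 library left out. As TPM the split was 667 higher and 1622 lower. The 4 histone genes became 9 with array weights, 7 of 62 with no filter and a pseudocount of 0.1 (chosen after seeing the data; 15.4% of all genes called), and 1 (without knockout 2) to 8 (without control 3) with 1 library left out. With the replicate block, which pairs libraries by number, 3051 genes and 6 histone genes were called. The block changed no other call among the tested replication-dependent histone genes. Their median log2 fold change of 0.31 was 0.041 with no filter, 0.11 with a filter at 0.3 FPKM and 0.20 to 0.39 with 1 library left out. None of the neighbouring genes passed (limma), but 1 did with the GC and length correction, alone or with the block, and 1 with array weights. The ratio of summed FPKM, 1.25, ranged from 1.16 to 1.36 with 1 library left out. The signs of 3 genes near 0 changed. H2BC9 was -0.035 as TPM and -0.11 to 0.12 with 1 library left out. H2AC20 was -0.0014 as TPM, -0.23 with the GC and length correction (with or without the block) and -0.094 to 0.23 with 1 library left out. H3-3A was 0.12 with the GC and length correction (with or without the block), 0.013 with array weights and -0.14 to 0.030 with 1 library left out. The cause was not tested. Counting error limits the members under 1 FPKM.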
